A study of Mus musculus with 6 samples.

Results

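The cytosolic ribosomal protein genes of antiviral CD4+ T cells were examined in RNA sequencing of cells with high or low surface CD25, the subunit that gives the receptor for interleukin-2 its high affinity. Members were the protein-coding mouse genes whose symbol is Rpl or Rps followed by a number, with or without letters, together with Rplp0, Rplp1, Rplp2 and Rpsa. Pseudogenes and the Rps6k kinases were left out, and so were Rps19bp1, a binding protein, and Rpl7l1, an assembly factor read with the assembly genes below. The annotation holds 84 such genes, and 81 of them had a row in the deposited table of 15445 genes: 45 of the large (60S) subunit, 31 of the small (40S) subunit and 5 paralogs. Rpl3l, Rpl10l and Rpl24 are not analysed here, and Rpl39l, with counts of 0, 0 and 1 in the CD25-high and 0, 0 and 11 in the CD25-low libraries, did not pass the filter on low counts, so 80 members were tested.

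Both groups were C57BL/6 mouse spleen cells taken 5 days after the mice were infected with LCMV, the lymphocytic choriomeningitis virus. The cells were monoclonal (all carrying the same transgenic T cell receptor) and were sorted by flow cytometry for CD4, for the surface marker Thy1.1 and for CD25. As far as the labels say, the groups differ in the CD25 gate alone. There were 3 CD25-high and 3 CD25-low libraries, numbered 1 to 3 in each group. The labels do not say that libraries came from separate animals, so each p-value reflects how far these libraries spread, and part of that spread may be technical.

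Each ribosome carries a single copy of most of these proteins, so the cell needs them in matched amounts. Their mRNAs are among the most abundant of growing cells and are known for a terminal oligopyrimidine (TOP) tract, a run of C and T bases at the start of the transcript. Through this tract the binding protein LARP1 and the kinase mTOR set how strongly the mRNAs are translated, so mRNA level and protein output can part. Activated T cells are known to enlarge their ribosome pool as they begin to divide.

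The TOP tract is the sequence feature these genes are best known for, and it was searched in the first 50 transcribed bases of RefSeq promoter windows (GRCm38.p6). A run was a C followed by C or T bases only, read on the strand that matches the mRNA, anywhere in these 50 bases. A run of at least 8 bases occurred in 39 of the 61 members with a window (63.9%) and in 4173 of 27025 genes with one (15.4%). At a minimum of 10 bases the shares were 41.0% and 6.78%, and at a minimum of 6 they were 80.3% and 37.0%. A match is a description of these letters and not of a used start site. The 7 stretches of 30 bases below, with the run in capitals, cover genes at the top, middle and bottom of the measured levels.
Rpl4: agcgtggCCTTCTCCTCTCCCCgtcatggt
Rps15: cagcccgtaCTTCCTTTTCCgagtaaccgc
Rpl13a: gaCCTCCTCCTTTCCCaggcggctgccgaa
Rpl38: CTTTCCCCgttctcttcggttctcatcgct
Rpl22l1: gttCTCTTCCCacggctgcagctcaacatg
Rps6: CTCTTTTTCgtgacgcctcccaggcgctcg
Rpl28: CTCTTTCCgtctccggccgccatagggaga

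They lie at chr9:64173406-64173435 on the plus strand for Rpl4, chr10:80292447-80292476 plus for Rps15, chr7:45128716-45128745 minus for Rpl13a and chr11:114668580-114668609 plus for Rpl38. The others are at chr3:28805508-28805537 plus for Rpl22l1, chr4:86857338-86857367 minus for Rps6 and chr7:4792965-4792994 plus for Rpl28. In Rpl38, Rps6 and Rpl28 the run begins at the first base of the RefSeq transcript, and in Rpl4 it begins at base 27. Long and short runs both occurred at high and low levels: the run is 15 bases in Rpl4 (619 CPM, or read counts scaled by library size, per kilobase of exon) and 16 in Rpl11 (3.14), and 8 in both Rps26 (37.6) and Rpl28 (1.22).

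Total counts ran from 16787233 to 23567066 per library. Il2ra, which encodes CD25, was at 1536, 432 and 666 CPM in libraries 1, 2 and 3 of the CD25-high group. In those of the CD25-low group it was at 20.7, 29.4 and 35.7 CPM, as the labels say. All 11 CD4 T cell markers were present, at a summed 3815, 4095 and 3952 CPM in the CD25-high and 4061, 4543 and 5319 CPM in the CD25-low group. None of these 11 was called without the block, with 3 lower at an unadjusted p under 0.05, and limma voom called 0. Trbc1, Cd3d and Cd3g were called lower in CD25-high with the library number as a block (adjusted p 0.0058, 0.013 and 0.013), and DESeq2 called Trbc1. Of other cell types, 2 of 6 B cell markers (Cd79b and Cr2, summed 1.69 to 4.90 CPM) and 1 of 6 erythroid markers (Alas2, 1.82 to 3.34 CPM) had a row. Of the myeloid markers 6 of 7 had one, at 27.6, 88.9 and 78.8 CPM in the CD25-high group and 13.2, 34.8 and 42.9 CPM in CD25-low libraries, mostly from Itgam. The CD8 T and NK list had 3 of 5, at 26.5, 12.8 and 16.0 against 4.70, 8.81 and 7.78 CPM, mostly from Klrk1, with Cd8a and Ncr1 lacking a row. With the block, edgeR called Itgam and Klrk1 higher in CD25-high (adjusted p 0.0013 and 0.035) and 0 genes of these 2 lists lower. DESeq2 also called Klrk1. Klrb1c, of the same list as Klrk1 and not tested, went the other way, at 0, 0.106 and 0 against 0.219, 2.09 and 0.786 CPM. The part of all these markers in the values below was not tested. In bulk samples, fewer cells of a type and less RNA per cell cannot be told apart.

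No ribosomal protein gene passed the test between CD25-high and CD25-low cells. In edgeR's quasi-likelihood test with Benjamini-Hochberg adjustment over all tested genes, 0 of the 80 members passed an adjusted p of 0.05, where 0.655% of the 12987 tested genes did (85 genes, of which 20 were higher and 65 lower in CD25-high). At an unadjusted p under 0.05 the count of members was also 0, against 11.1% of all tested genes. DESeq2, which called 2.44% of the genes it tested, and limma voom, which called 0.724%, called 0 members as well. In each of them the same 2 members, Rps27a and Rpl21, were higher at an unadjusted p under 0.05, where 5.44% and 4.78% of all genes were. A fit that keeps the library number as a block called 601 of all genes (4.63%) and 0 members. With the block, 8 members had an unadjusted p under 0.05, all higher in CD25-high (among them Rplp1, Rps27a, Rpl6, Rpl21, Rpl23a, Rpl18 and Rpl7a), against 8.68% of all tested genes in that direction. In the edgeR fit without the block, the smallest adjusted p among members was 0.453, for Rpl21.

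Fold changes of the members were small, and more of them were positive than negative. The median log2 fold change, CD25-high over CD25-low, was 0.14 over the 80 members and 0.01 over all tested genes. That median rests on single libraries: it was 0.01 without CD25-low library 2, 0.05 without CD25-high library 3, 0.28 without CD25-high library 2 and 0.34 without CD25-low library 1, and in the pair numbered 1 alone it was -0.23. With all 6 libraries it was 0.17 for the 45 genes of the large subunit, of which 33 had a positive value, and 0.14 for the 31 of the small subunit, of which 24 did. The 4 tested paralogs had a median of 0.01. In all, 59 of 80 members (73.8%) were on the CD25-high side, against 50.8% of all tested genes. Since members are not replicates of a condition, these counts carry no test.

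**Figure D1:**
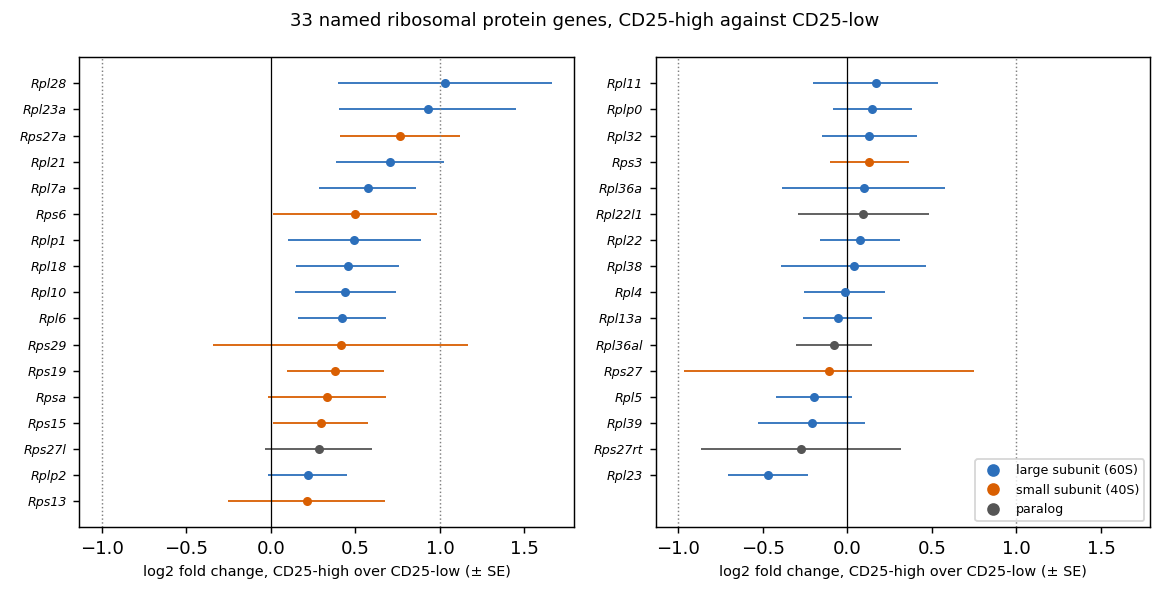
Log2 fold change, CD25-high over CD25-low, of 33 of the 80 tested members, with bars of 1 SE on either side, coloured by subunit; dotted lines mark 2-fold either way. Values run from -0.47 for Rpl23 to 1.03 for Rpl28, and most bars of neighbouring genes overlap.

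Values ran from -0.47 for Rpl23 to 1.03 for Rpl28, which was the only member past 2-fold. The SD of the log2 fold changes over members was 0.28, below the median standard error (SE) of a single member, 0.31. Over all tested genes the SD was 0.75 and the median SE 0.37. For 49 of the 80 members (61.3%) the 95% interval lay within 2-fold either way, against 37.5% of all tested genes. The remaining 31 members had intervals that reach 2-fold, so in this fit a difference of that size stays possible for them. These SEs and intervals come from the fit without the block. With the block the SE was smaller for some of the 31, such as Rps20 (0.19 against 0.38) and Rpl27a (0.20 against 0.36). It was larger for others, such as Rpl28 (0.69 against 0.63). Intervals with the block are not given here.

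Rpl21, a protein of the large subunit (gene at chr5:146832890-146837032 in GRCm38, the build of all coordinates here), had the smallest p without the block. Libraries 1, 2 and 3 of the CD25-high group had 13.3, 13.2 and 16.1 CPM, and those of the CD25-low group 11.0, 6.73 and 8.40 CPM. Every CD25-high library was above every CD25-low one. The log2 fold change was 0.70 ± 0.32 (SE, n = 3 and 3; edgeR adjusted p 0.453).

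Rps27a, at chr11:29545846-29548109, encodes ubiquitin fused to a small-subunit protein and is one of the cell's sources of ubiquitin. It was at 12.9, 9.21 and 9.25 CPM in CD25-high and 7.77, 5.54 and 5.13 CPM in CD25-low libraries. The groups did not overlap, and within each group the library numbered 1 was the highest. Its log2 fold change was 0.77 ± 0.35 (edgeR adjusted p 0.462). Its exons overlap Clhc1 on the opposite strand by 160 bases, and whether the counting used strand is not given in the sources used here.

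Rpl28, a large-subunit protein, had the largest fold change on few reads: 67, 52 and 44 counts in CD25-high and 10, 46 and 46 in CD25-low. As CPM these are 3.80, 2.77 and 2.48 against 0.547, 1.96 and 1.90. The groups do not overlap, and CD25-low library 1 stands below the other five. The log2 fold change of 1.03 ± 0.63 (edgeR adjusted p 0.600) was 0.64 without that library and 0.44 without both libraries numbered 1.

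Rpl23 went the other way. It encodes a large-subunit protein at the face where the subunits meet and sits at chr11:97777527-97782437. Its level was 46.5, 44.8 and 50.5 CPM in CD25-high and 86.8, 53.7 and 55.7 CPM in CD25-low libraries. All 3 CD25-low libraries were above all 3 CD25-high ones, by a wide margin only in library 1. The log2 fold change was -0.47 ± 0.24 (edgeR adjusted p 0.520), and -0.21 without CD25-low library 1. In all, 3 members were higher (Rps27a, Rpl28, Rpl21) and 1 lower (Rpl23) with no overlap between groups, which is 5.0% of members, against 16.9% of all tested genes (7.41% higher and 9.54% lower).

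Other large-subunit genes among the 10 smallest p-values were higher on average in CD25-high, with overlapping groups. Rpl7a was at 26.0, 21.3 and 33.0 CPM against 14.985, 15.6 and 23.3 CPM (log2 fold change 0.57 ± 0.29). Rpl23a, whose protein lies at the exit of the tunnel through which the new chain leaves the ribosome, was at 7.48, 4.10 and 8.69 CPM against 6.07, 2.34 and 2.27 CPM (0.93 ± 0.53, with 1.55 without CD25-low library 1). In both genes CD25-high library 3 was the highest of all 6 libraries, and the lowest was CD25-low library 1 for Rpl7a and library 3 for Rpl23a. Rpl18 (0.46 ± 0.30) and Rpl6 (0.42 ± 0.26) had the same direction in each same-numbered pair of libraries. Rpl10, whose protein joins last, near the catalytic centre, had 27.0, 16.1 and 27.5 CPM against 14.2, 16.5 and 21.3 CPM (0.44 ± 0.30), and its pair numbered 2 was almost level.

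**Figure D2:**
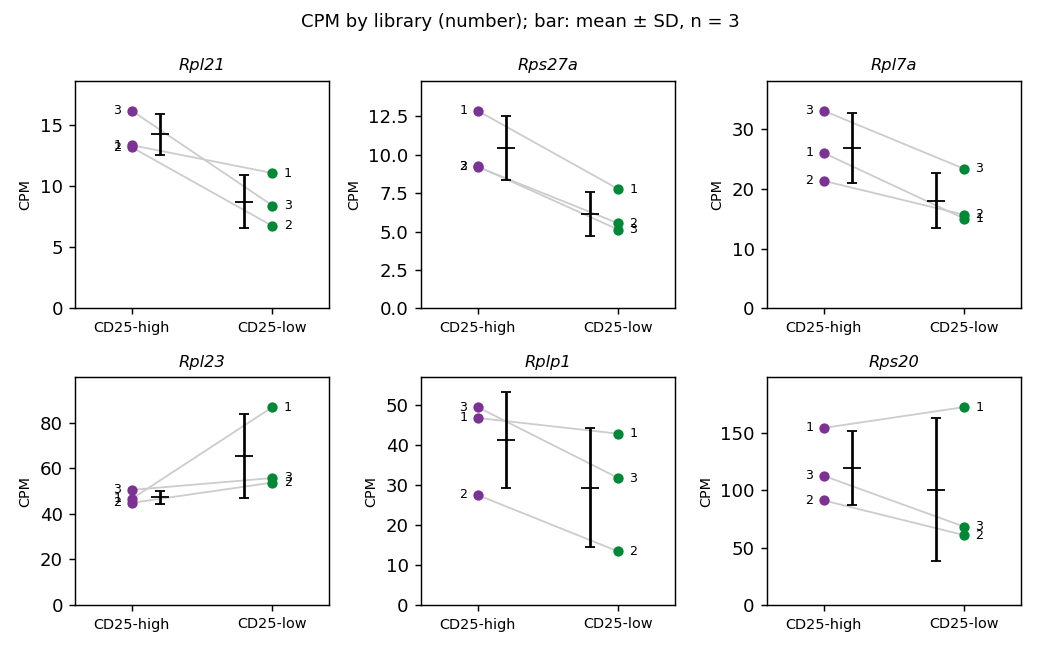
CPM (linear axes from 0) of Rpl21, Rps27a, Rpl7a, Rpl23, Rplp1 and Rps20 in the 3 CD25-high and 3 CD25-low libraries, numbered, with grey lines between same-numbered libraries and black bars for mean ± SD. The groups separate for Rpl21, Rps27a and Rpl23 and overlap for Rpl7a, Rplp1 and Rps20, and for Rps20 the line between the libraries numbered 1 slopes the other way.

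The stalk of the large subunit, which recruits the elongation factors, is built from Rplp0 with pairs of Rplp1 and Rplp2. Rplp0, the base of the stalk, was at 207, 207 and 240 CPM in CD25-high and 250, 138 and 201 CPM in CD25-low (log2 fold change 0.15 ± 0.23). Rplp1 was at 46.6, 27.4 and 49.4 CPM against 42.7, 13.3 and 31.6 CPM (0.49 ± 0.40, with 0.14 without CD25-low library 2 and 0.87 without CD25-low library 1). Rplp2 was at 58.3, 54.0 and 80.035 CPM against 59.99, 45.0 and 60.2 CPM (0.22 ± 0.23). All 3 stalk genes overlapped between the groups, and CD25-low library 2 was the lowest for each. Rplp1 was higher in CD25-high in each same-numbered pair, and the other 2 genes were lower in the pair numbered 1.

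Members with a known role outside the ribosome did not pass the test either. Rpl5 and Rpl11, which bind MDM2 and so tie ribosome assembly to p53, had log2 fold changes of -0.20 ± 0.22 and 0.17 ± 0.37. Rps6, the classical substrate of the S6 kinases, was at 5.78, 3.35 and 3.78 CPM against 4.16, 2.73 and 2.27 CPM (0.50 ± 0.48). Rps3, also described as a partner of NF-kB in T cells, was at 262, 315 and 452 CPM against 275, 298 and 368 CPM (0.13 ± 0.23). For Rps6 and Rps3 alike the groups overlapped, and the SD of the CD25-high libraries exceeded the difference between the group means. Rpl13a, known from a complex that silences inflammatory mRNAs, was at 205, 194 and 230 CPM against 270, 188 and 196 CPM (-0.06 ± 0.20). The 95% interval of its log2 fold change ran from -0.51 to 0.39. Rpsa, also known as a laminin receptor (0.33 ± 0.35), Rps19, mutated in Diamond-Blackfan anaemia (0.38 ± 0.29), and Rpl38, known for its effect on Hox mRNA translation (0.04 ± 0.43), had overlapping groups too.

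Paralogs replace or accompany a canonical protein in some tissues. Rpl22, an RNA-binding protein of the large subunit that developing alpha-beta T cells need, was at 164, 111 and 150 CPM in CD25-high and 171, 107 and 126 CPM in CD25-low (log2 fold change 0.08 ± 0.24). Its paralog Rpl22l1 was at 29.7, 19.0 and 19.8 CPM against 34.7, 12.1 and 17.3 CPM (0.10 ± 0.39). Both genes were highest in the libraries numbered 1, and neither separated the groups. Per kilobase of exon, Rpl22 (47.4 CPM) was above Rpl22l1 (11.1 CPM). Rpl36al, at 37.0, 43.4 and 52.1 against 53.3, 42.3 and 44.3 CPM, had more reads per kilobase (33.6 CPM) than its parent Rpl36a (2.75 CPM), and their log2 fold changes were -0.08 ± 0.22 and 0.10 ± 0.48. Rpl39 was at 38.8 CPM per kilobase with a log2 fold change of -0.21 ± 0.32, while its paralog Rpl39l had counts above 0 only in library 3 of each group. Windows of transcript sequence that also occur in another annotated gene, described below, made up 85.5% of Rpl36a against 16.1% of Rpl36al. They made up 51.4% of Rpl22l1 against 5.2% of Rpl22, so in both pairs the gene with the lower level shared more. Rpl39l, at 0% against 16.5% for Rpl39, went the other way. The part of shared reads in these differences between paralog and parent was not tested.

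The Rps27 family shows how far sequence limits what counts can say. Rps27 and Rps27rt have the same coding sequence over all 255 bases with the stop codon, and Rps27l differs from it at 61 of them (76.1% identity). The first 90 coding bases from the GENCODE transcripts show this, with capitals in Rps27l at its 24 differences from Rps27.
Rps27: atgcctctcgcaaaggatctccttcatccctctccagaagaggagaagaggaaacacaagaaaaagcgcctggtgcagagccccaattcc
Rps27rt: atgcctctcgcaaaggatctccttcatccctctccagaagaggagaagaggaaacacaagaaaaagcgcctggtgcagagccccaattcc
Rps27l: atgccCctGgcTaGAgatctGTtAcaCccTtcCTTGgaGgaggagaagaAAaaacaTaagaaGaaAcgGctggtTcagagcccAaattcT

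Rps27, at chr3:90212522-90213651, had only 18, 18 and 9 counts in CD25-high and 22, 31 and 4 in CD25-low. Rps27rt, at chr9:114982366-114982739, was at 1.76, 1.07 and 1.97 CPM against 2.08, 1.62 and 2.11 CPM. Reads from their shared coding bases cannot be told apart, so both values are uncertain. Their log2 fold changes were -0.11 ± 0.86 and -0.27 ± 0.59. Rps27l, a known p53 target at chr9:66946086-66949516, was at 29.2, 30.7 and 36.3 CPM against 40.4, 19.6 and 19.1 CPM (log2 fold change 0.28 ± 0.32). For Rps27l the CD25-low group held both the highest library, number 1, and the lowest ones, so the groups overlapped.

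Levels of the canonical members, which make up 1 particle, were far from equal in the table. Mean CPM per kilobase of exon had a median of 14.1 over the 76 canonical genes (15.2 in the large and 10.6 in the small subunit) and spanned 748-fold. Rpl4, whose protein lines the exit tunnel, was the highest at 619, and Rpl32 at 163 and Rps15 at 151 were also among the 4 highest. Rpl4 alone was at 1387, 1088 and 1229 CPM in CD25-high and 1727, 1052 and 966 CPM in CD25-low, and held 20.7% to 27.5% of all member counts. It did not separate the groups (log2 fold change -0.02 ± 0.24). The lowest were Rps27 at 0.827, Rps13 at 1.19, Rpl28 at 1.22 and Rps29 at 1.91 CPM per kilobase. Of the other high genes, Rpl32 had a log2 fold change of 0.13 ± 0.28 and Rps15 of 0.29 ± 0.28 (0.64 without CD25-low library 3, 0.16 without library 1 and 0.13 without library 2), and of the low ones Rps13 was at 0.21 ± 0.46 and Rps29 at 0.41 ± 0.76. Of the 76 canonical genes, 19 had a mean under 10 CPM, and 13 were over 100 CPM. The length used was the union of all annotated exons of a gene (2691 bases for Rps13), which can exceed that of the mRNA present. Exons of 24 members, Rpl4 among them, overlap an exon of a small nucleolar RNA gene. The part of either in these levels was not tested.

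**Figure D3:**
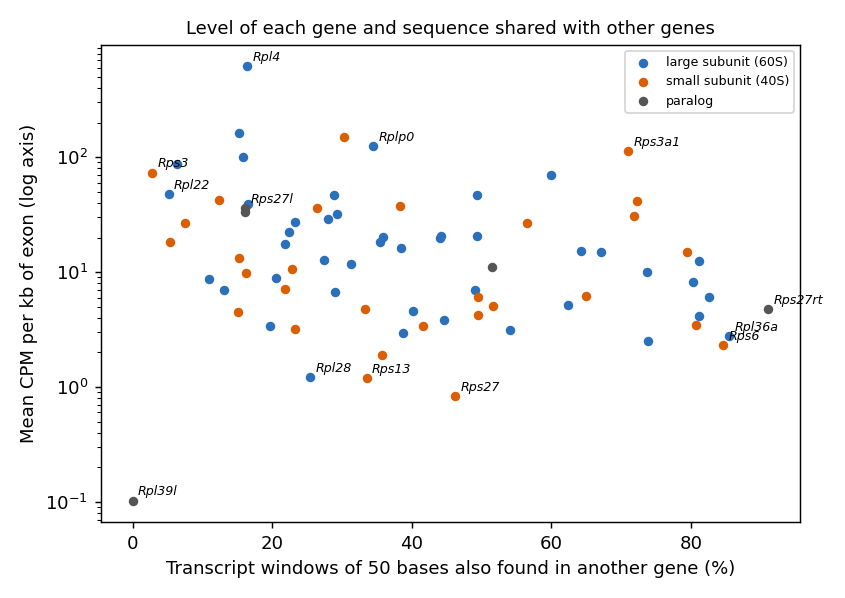
Mean CPM per kilobase of exon (log axis) of 78 of the 81 members with a row, against the percentage of its 50-base transcript windows that also occur in another annotated gene. Rpl4 lies highest, Rps3 is high with 2.82% shared sequence, and Rps3a1 is high although 71.0% of its windows are shared.

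Ribosomal protein genes have many processed pseudogenes, so the share of each transcript's 50-base windows found in another annotated gene was computed. The median over members was 34.5%, 79 members had some shared sequence, and 23 had more than 50% shared. Median CPM per kilobase was 20.4 for the 24 canonical genes with at most 25% shared, 16.3 for the 31 with over 25% to 50%, and 8.15 for the 21 with over 50%. Across these 76 genes, which come from the same libraries and are not independent, the level went with sharing at a Spearman rho of -0.36 and a Pearson r of log2 level of -0.33, as a description. Rps3, with 2.82% shared, was at 73.3 CPM per kilobase. Rps6, with 84.6%, was at 2.32 and Rpl36a, with 85.5%, at 2.75. Rps3a1, at 113 with 71.0% shared, and Rps27, at 0.827 with 46.2%, lie off that order. The treatment of reads with several matches is not given in the sources used here, and its part in these levels was not tested. Median log2 fold changes were close at both ends of sharing, at 0.12 for the 26 tested members with at most 25% shared and 0.10 for the 23 with over 50%. The median of the members in between is not given here.

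Summed over members, the group means were close and the libraries wide apart. The sum was 5273, 4651 and 5892 CPM in the CD25-high group and 6277, 3887 and 4674 CPM in the CD25-low group. CD25-low library 1 was the highest and CD25-low library 2 the lowest of all 6, so both extremes lie in 1 group. Means were 5272 ± 620 and 4946 ± 1218 CPM (SD, n = 3 each). As a share of all counts the members took 0.387% to 0.622% per library, and the CD25-high mean was 1.07 times the CD25-low mean. Large-subunit genes summed to 3499, 2949 and 3594 CPM against 4204, 2539 and 2882 CPM, and small-subunit genes to 1676, 1608 and 2187 CPM against 1943, 1273 and 1708 CPM. In both subunits CD25-low library 2 was the lowest.

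**Figure D4:**
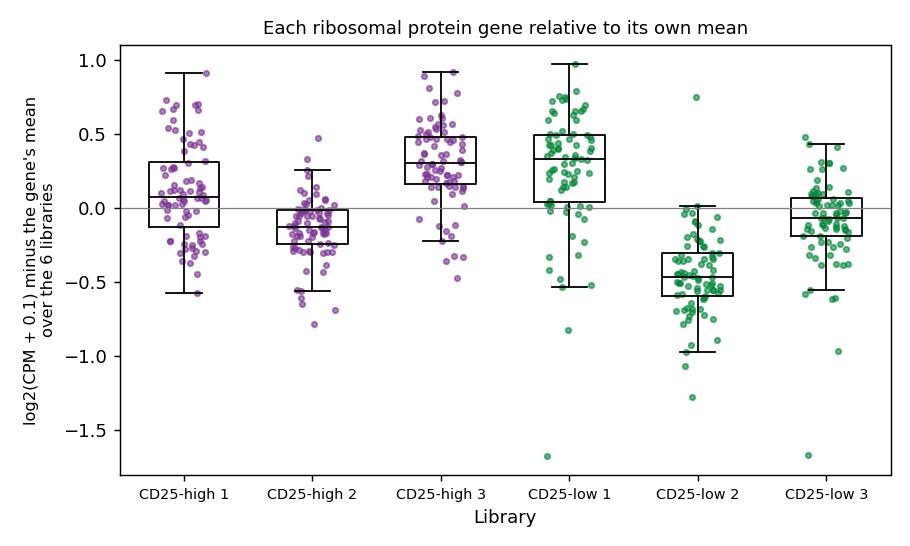
Log2 (CPM + 0.1) of each of the 80 tested members minus its own mean over the 6 libraries, one point per gene; boxes give the median and quartiles, and whiskers reach to the last point within 1.5 times the box. Medians run from -0.47 in CD25-low library 2 to 0.33 in CD25-low library 1.

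Member by member the same libraries stood out. Relative to each gene's mean over the 6 libraries, on the log2 (CPM + 0.1) scale, the median member was at 0.08, -0.12 and 0.30 in CD25-high libraries 1, 2 and 3 and at 0.33, -0.47 and -0.06 in CD25-low. CD25-low library 2 was the lowest of the 6 for 53 of 80 members, against 17.3% of all tested genes. CD25-high library 3 was the highest for 35 members, against 14.9% of all tested genes, and CD25-low library 1 for 33, against 17.8%. The median member thus differed by more between libraries of the CD25-low group than between the groups.

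Within same-numbered libraries the direction depended on the number. In the libraries numbered 1, 23 of 80 members (28.8%) were higher in CD25-high, with a median log2 difference of -0.23. In those numbered 2 it was 69 members (86.2%, median 0.36) and in those numbered 3 it was 73 (91.2%, median 0.35). The shares over all tested genes were 50.9%, 49.7% and 50.6%. Thus 20 of 80 members (against 20.4% of all tested genes) were higher in CD25-high in all 3 pairs, among them Rps27a, Rpl21, Rpl28, Rpl7a, Rps6 and Rps19, and 3 were lower in all 3, Rpl23, Rpl17 and Rps27rt (3.75%, against 20.2%).

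**Figure D5:**
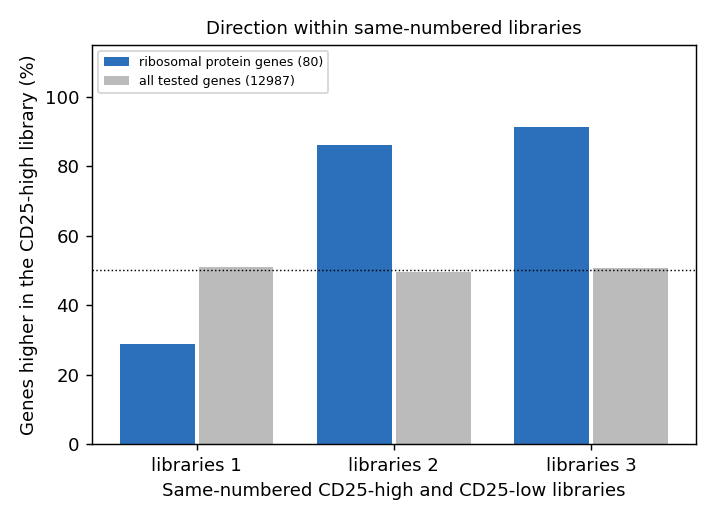
Percentage of genes higher in the CD25-high than in the CD25-low library of the same number, for the 80 tested members (blue) and all 12987 tested genes (grey), with a dotted line at 50%. Members are at 28.8% for the libraries numbered 1 and at 86.2% and 91.2% for those numbered 2 and 3, while all genes stay near 50%.

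Without both libraries numbered 1, an alternative added after the data were seen, the members' median log2 fold change was 0.36 and still 0 members passed, against 2.83% of all genes tested in that fit (edgeR, smallest adjusted p 0.112 for Rps20). With the block and without that pair it was 0.38 with 0 members called (3.44% of all genes were), and 20 members had an unadjusted p under 0.05, all higher, against 7.98% of all tested genes in that direction. Rps20, of the small subunit's head, was at 155, 91.3 and 113 CPM in CD25-high and 173, 60.9 and 68.3 CPM in CD25-low. It was highest in both libraries numbered 1, and lower in CD25-high only there. Its adjusted p without pair 1 and with the block was 0.0717.

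The libraries numbered 1 were also compared with those numbered 2 and 3, with the group as a term. In this contrast, added after the data were seen, 4 members were higher in the libraries numbered 1 (edgeR, adjusted p under 0.05) and 0 lower, where 3.19% of all tested genes were called higher and 3.98% lower. They were Rps20 (log2 difference 1.03 ± 0.20, adjusted p 0.0082), Rpl27a (0.98 ± 0.20), Rpl9 (0.77 ± 0.20) and the paralog Rpl22l1 (0.94 ± 0.26). The median over members was 0.28, against -0.03 over all tested genes. Rpl27a was at 65.1, 42.6 and 42.1 CPM in CD25-high and 103, 41.5 and 42.2 CPM in CD25-low, so libraries 2 and 3 of both groups were nearly level. Mitochondrial genes took 38.2% and 38.3% of the counts in the libraries numbered 1 and 32.0% to 35.1% in the others. Most of this was mitochondrial ribosomal RNA, at 34.0% and 35.3% of the counts in the libraries numbered 1 and 29.3% to 33.1% in the others. The part of mitochondrial genes in the difference between library numbers was not tested.

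Genes around the ribosome were read from lists chosen for their role. In the 5 lists that follow, DESeq2 and limma voom, like edgeR without the block, called 0 genes. Ribosomal protein genes with other symbols, such as Fau and Rack1, gave 0 calls in 3 tested and 0 at an unadjusted p under 0.05, and Rack1 was at 295, 268 and 338 CPM against 419, 187 and 284 CPM. Rack1 has the order of libraries seen in the members' sum. Among 16 translation factors and other genes with known TOP mRNAs 0 were called and 1 had an unadjusted p under 0.05, with a median log2 fold change of 0.28. That gene was Eef1g, a subunit of the factor that recharges eEF1A, at 125, 97.1 and 119 CPM against 97.5, 74.6 and 73.3 CPM (0.47 ± 0.21, edgeR adjusted p 0.439). Eef1d, of the same complex, had 0.38 ± 0.25 and the helicase gene Eif4a2 0.32 ± 0.18.

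Of 18 listed regulators of ribosomal protein synthesis and genes of the p53 pathway (Mdm2, Trp53 and Cdkn1a), 16 were tested and 0 called. Their median was 0.25, and 1 was higher and 1 lower at an unadjusted p under 0.05. Mycn and Znf598 had no row under these symbols. With the block, which called 4.63% of all tested genes, Larp1 and Myc were called higher and Max lower in CD25-high, 3 of 16. Larp1, the binder of TOP mRNAs, was at 461, 294 and 366 CPM against 263, 183 and 259 CPM (log2 fold change 0.67 ± 0.23, adjusted p 0.309, and 0.019 with the block). All 3 CD25-high libraries were above all 3 CD25-low ones. Myc, a transcription factor that drives ribosome production, was at 284, 49.7 and 75.7 CPM against 90.6, 33.3 and 56.2 CPM (1.19 ± 0.58, adjusted p 0.496, and 0.040 with the block), with CD25-high library 1 far above the rest. Its partner Max was at 146, 113 and 156 CPM against 252, 209 and 198 CPM (-0.67 ± 0.20, adjusted p 0.238, and 0.032 with the block).

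Ribosome assembly genes, which make and process ribosomal RNA and build the subunits, gave 0 calls among 34 tested, without or with the block, and a median log2 fold change of 0.37, with 1 gene at an unadjusted p under 0.05. That gene, Bysl, a factor of small-subunit assembly, was at 36.1, 61.9 and 65.5 CPM against 37.6, 27.4 and 34.1 CPM (0.72 ± 0.27, edgeR adjusted p 0.354). Nop56, of the complex that methylates ribosomal RNA, had 0.60 ± 0.28 and Ltv1, another small-subunit factor, 0.42 ± 0.25. In the libraries numbered 1, 14 of the 34 were called higher and 0 lower, with a median of 0.71, where 3.19% and 3.98% of all tested genes were called. Of these assembly genes 23, 21 and 32 were higher in CD25-high within the pairs numbered 1, 2 and 3, so in the pair numbered 1 most assembly genes were higher in CD25-high, where most ribosomal protein genes were lower. The difference between the lists was not tested.

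The mitochondrial ribosome has its own set of proteins, made in the cytosol and imported. Of 76 tested genes 0 were called and 3 were higher at an unadjusted p under 0.05, against 11.1% of all tested genes in either direction. With the block, where 4.63% of all tested genes were called, 1 of the 76, Mrpl38, was called higher (log2 fold change 1.43 ± 0.60, adjusted p 0.412, and 0.029 with the block). The others of the 3 were Mrpl36 (0.81 ± 0.34) and Mrps18b (1.24 ± 0.52). The median of these 76 genes was 0.09, and 32, 55 and 55 of them were higher in CD25-high within the pairs numbered 1, 2 and 3.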

How the data were processed

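The authors deposited raw counts, a whole number for each Ensembl gene in each of 6 libraries. Per the labels' protocols, total RNA was extracted with QIAzol and the miRNeasy kit, and libraries were made with a NuGEN Ovation v2 RNA-Seq kit. The submitters' processing notes name Novoalign, DESeq2, mm10 and hg19 with neither version nor role. How reads were counted (tool, annotation, strand, reads with several matches) is not given in the sources used here. No row sums to less than 10.

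Of 15445 rows, 15169 were named through GENCODE M21 (GRCm38, the assembly of mm10), which also gave exon lengths as the union of a gene's exons. Counts were tested with edgeR 4.0.16 in R 4.3.3 (TMM factors, filterByExpr with minimum count 10 and minimum total 15, quasi-likelihood F test, no term but the group). The adjustment was Benjamini-Hochberg over the 12987 genes tested, with 0.05 as the threshold. SE was approximated from F, as the size of the log2 fold change divided by F's square root. CPM use TMM-adjusted library sizes. Within a pair of libraries, log2 differences used CPM + 0.1. The script was tested on simulated data. Replicates of 1 group differed by more than sampling noise, at a chi-square of 27.8 to 98.5 per degree of freedom.

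Over 2000 variable genes, libraries that share a number deviated together from the group means (correlations 0.34, 0.19 and 0.16), and others correlated at -0.26 to 0.13. The numbers were taken as pairs on this evidence, in the block and in comparisons within pairs. The evidence is thin for pairs 2 and 3, since CD25-high library 2 with CD25-low library 3 gave 0.13. The main test has no term for the pair. No label states the pairing.

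Named members are the 10 with the smallest p, the 4 highest and 4 lowest canonical genes per kilobase, the stalk genes, each detected paralog with its parent, and members with a second role. Up to 3 genes per context list are named by smallest p. Rps20, Rps26, Rpl27a, Rpl9, Rpl17, Rps3a1, Rack1, Itgam, Klrk1 and Klrb1c, and genes called with the block, were named after their values were seen. Some genes under this rule are not reported here. The members and lists were chosen with earlier results of these data known. Alternatives were other scalings and filters, DESeq2 1.42.0, limma 3.58.1 voom, the block, and libraries left out.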

Additional observations from a re-analysis of the deposited data

How the results depend on the processing

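The count of ribosomal protein genes called was 0 under each of the 19 other settings of the test across genes, and 0 of 664 alternative values of the 35 named genes was called. The count of all tested genes called, 85, was less stable: it was 376 with DESeq2, 601 with the replicate block, 461, 486 and 536 with the block and without pair 1, 2 or 3, 380 without both libraries numbered 1 (these 4 added after the data were seen), and 22 to 130 with 1 library left out. The cause was not tested. Other scalings, filters and limma voom gave 79 to 95.

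The members' median log2 fold change of 0.14 was 0.01 without CD25-low library 2, 0.05 without CD25-high library 3, 0.28 without CD25-high library 2 and 0.34 without CD25-low library 1. It was 0.18 with the block and ran from 0.13 to 0.20 under the other scalings, filters and tools. The ratio of summed shares, 1.07, was 1.05 without mitochondrial genes and 1.06 also without the 50 most abundant other genes. Of the named genes, 13 changed sign in at least 1 alternative, 48 values in all, most often Rpl4 and Rps27, and 27 values moved by at least 1 SE.

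Depth limits the genes of few reads most: Rps27, Rps29, Rpl28 and Rps13 had mean levels under 4 CPM in both groups. Intervals cover the spread between 3 libraries a group, and reads shared with pseudogenes, paralogs or overlapping genes add an error that was not measured.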
